A study of Homo sapiens with 15 samples.

Results

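The comparison described here is of rocaglamide (Roc) against its vehicle in MG-63 cells, an established human osteosarcoma line. Its members are 4 of the 15 poly(A)+ RNA libraries of the series, chosen by their labels: 2 libraries of cells given 25 nM Roc for 24 h and 2 of cells given 0.04% DMSO for the same time, without any engineered allele in either group. The line was grown in high-glucose medium with serum. The labels call both DMSO libraries and Roc replicate 1 biological replicates and Roc replicate 2 a replicate only, so the spread behind every p-value may be partly technical. The table lists 57773 genes, of which 15303 had enough counts to be tested.

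Roc is a plant-derived flavagline that clamps eIF4A1 and eIF4A2, the RNA helicases of the eIF4F cap-binding complex, onto purine-rich RNA, and so blocks the ribosome's path along the 5' end of an mRNA. The dose was the one the study had found to be the growth IC50 of Roc in this line. Libraries of whole-cell mRNA measure transcript abundance, which reflects synthesis and decay and not translation. MG-63 is a mesenchymal, fibroblast-like line with an immature osteoblast character, known for secreted matrix proteins and matrix-degrading enzymes.

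Total gene counts were 24506297 and 34113422 in the Roc libraries and 35497975 and 42541127 in the DMSO libraries, and 20399 and 21561 genes had a count with Roc against 22370 and 22086 with DMSO. Mitochondrially encoded genes held 2.04% and 2.53% of counts with Roc and 1.85% and 1.29% with DMSO. All 12 mesenchymal markers examined were present, with a summed level of 16583 and 18480 CPM (counts scaled to 1e+06 per library) with Roc against 14974 and 15490 CPM with DMSO. The 12 blood markers were under 1 CPM in every library, and 10 of 12 epithelial markers were too. So were 5 of 9 endothelial and 7 of 10 osteoclast markers. The endothelial markers CDH5, ERG, ESAM and ROBO4 and the osteoclast markers CTSK, TNFRSF11A and ITGB3 were not. The endothelial list summed to 27.99 and 31.58 CPM with Roc against 18.47 and 20.3 CPM with DMSO. By the rule given below, 1 of its 4 tested members was called higher and 2 lower. The part of depth and of mitochondrial share in the results was not tested, beyond thinning every library to the smallest total, which left 688 higher and 363 lower calls.

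A gene is called here when its adjusted p is at most 0.05 and its log2 fold change, Roc minus DMSO, is at least 0.5 in size. By this rule 1087 genes were called, 7.1% of those tested, with 700 higher in Roc (4.57%) and 387 lower (2.53%). The changes were mostly modest. The median size was 0.699 among the rises and 0.726 among the falls on the log2 scale, and 138 rises and 107 falls reached 1. Of the 12247 protein-coding genes 7.81% were called, of which 639 rose (5.22%) and 318 fell (2.6%). The 2 Roc values lay wholly above or wholly below the 2 DMSO values in 57.4% of all genes tested and 60.5% of protein-coding genes. A lack of overlap is thus by itself common here. It held for all 700 called rises and for 384 of the 387 called falls, so in a called gene it adds no further evidence. Without the fold minimum 2863 genes passed the adjusted p, 18.7% of those tested. An unadjusted p under 0.05 was more common still, with 4728 of the 15303 genes tested. The median over all genes tested was 0.013, the value beside which each gene list below is read.

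**Figure D1:**
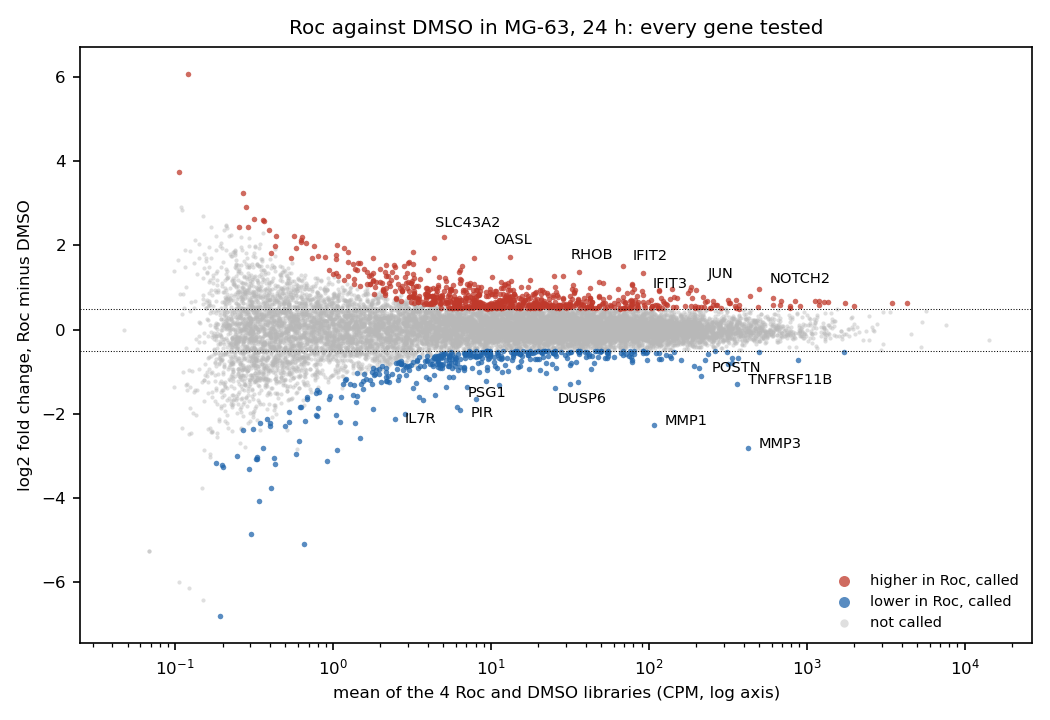
Log2 fold change, Roc minus DMSO, of each of the 15303 genes tested (vertical axis) against its mean level over the 4 libraries (CPM, log axis). Red points are the 700 genes called higher in Roc, blue points the 387 called lower, grey points were not called, and dotted lines mark the fold minimum of 0.5. MMP3 (-2.83) and MMP1 (-2.27) are the lowest points in the right part of the plot.

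The calls, falls above all, rest in part on single libraries. Without DMSO replicate 2 the fit called 608 genes higher and 221 lower, with 506 of the 700 rises and 185 of the 387 falls among them. The other 3 fits that each left out a library called 576 to 719 higher and 321 to 386 lower, with 470 to 564 of the 700 rises and 243 to 246 of the 387 falls among them. No gene was called in the opposite direction in any of these fits.

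A pair of matrix-degrading enzymes and a pair of secreted bone and matrix proteins had the 4 smallest p-values among the falls. MMP3, the stromelysin that cleaves proteoglycans and activates other proenzymes, had the smallest p of all genes. Its level was 98.6 and 112 CPM in the Roc libraries and 695 and 802 CPM in the DMSO libraries, which put every Roc value far below every DMSO value. The log2 fold change was -2.83 ± 0.09 (SE, n = 2 libraries each, adjusted p = 7.59e-16), a ratio of 0.141. MMP1, the interstitial collagenase encoded near MMP3 on chromosome 11, had 33.6 and 39.9 CPM with Roc against 172 and 185 CPM with DMSO, and fell by 2.27 on the log2 scale (± 0.09, adjusted p = 1.65e-14). Of 26 tested metalloproteinase and inhibitor genes these 2 were the only ones called (7.69%, near the 7.1% of all genes). MMP2, the gelatinase A gene, had 423 and 529.9 CPM with Roc against 503 and 522 CPM with DMSO, values that overlap, and the median of the list was 0.097.

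On GRCh37, MMP3 lies at chr11:102706532-102714340 and MMP1 at chr11:102660132-102668891, both on the minus strand, and neither shares exons with a gene on the other strand in the annotation used.

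TNFRSF11B and POSTN came next among the falls. TNFRSF11B encodes osteoprotegerin, the soluble decoy receptor that holds back osteoclast formation, and had 205 and 219 CPM with Roc against 509 and 522 CPM with DMSO (-1.28 ± 0.07, adjusted p = 4.19e-11). POSTN encodes periostin, a matrix protein of periosteum and connective tissue, and had 127 and 146 CPM with Roc against 291 and 298 CPM with DMSO (-1.11 ± 0.08, adjusted p = 1.31e-09). In both genes the 2 Roc values lay below the 2 DMSO values, and 384 of the 387 called falls did not overlap either. Leaving out any one library kept TNFRSF11B between -1.33 and -1.25 and POSTN between -1.21 and -1.02.

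Bone and matrix genes were called in both directions. Of 21 tested osteoblast and bone matrix genes 3 rose, 2 fell (TNFRSF11B and POSTN) and 16 were not called. The share called was 23.81%, against 7.1% of all genes, and the median was 0.175. RUNX2, the transcription factor that commits cells to the osteoblast lineage, had 11.6 and 10.7 CPM with Roc against 5.49 and 5.51 CPM with DMSO (1.01 ± 0.14, adjusted p = 2.15e-05). COL5A2, a fibrillar collagen chain, had 949 and 1121 CPM with Roc against 628 and 674 CPM with DMSO (0.67 ± 0.08, adjusted p = 4.44e-06). The small proteoglycan DCN also rose, by 0.55 ± 0.09. Among 23 collagen chain genes COL5A2 and COL3A1 rose, 4 fell (26.09% called, against 7.1% of all genes), and the median was 0.236.

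COL3A1, another fibrillar chain, shows how the Roc libraries differed. It had 1349.5 and 1801 CPM with Roc against 991 and 1009.7 CPM with DMSO, so Roc replicate 2 was well above replicate 1. Its change was 0.66 ± 0.10 (adjusted p = 3.56e-05) and 0.43, under the fold minimum, without Roc replicate 2. COL1A1, which encodes the main chain of bone collagen, had 1506 and 1754 CPM with Roc and 1411 and 1412 CPM with DMSO and was not called (0.21 ± 0.09, adjusted p = 0.0943). COL8A1 and COL13A1 fell, by 0.52 and 1.56 on the log2 scale, and neither was called without DMSO replicate 2.

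**Figure D2:**
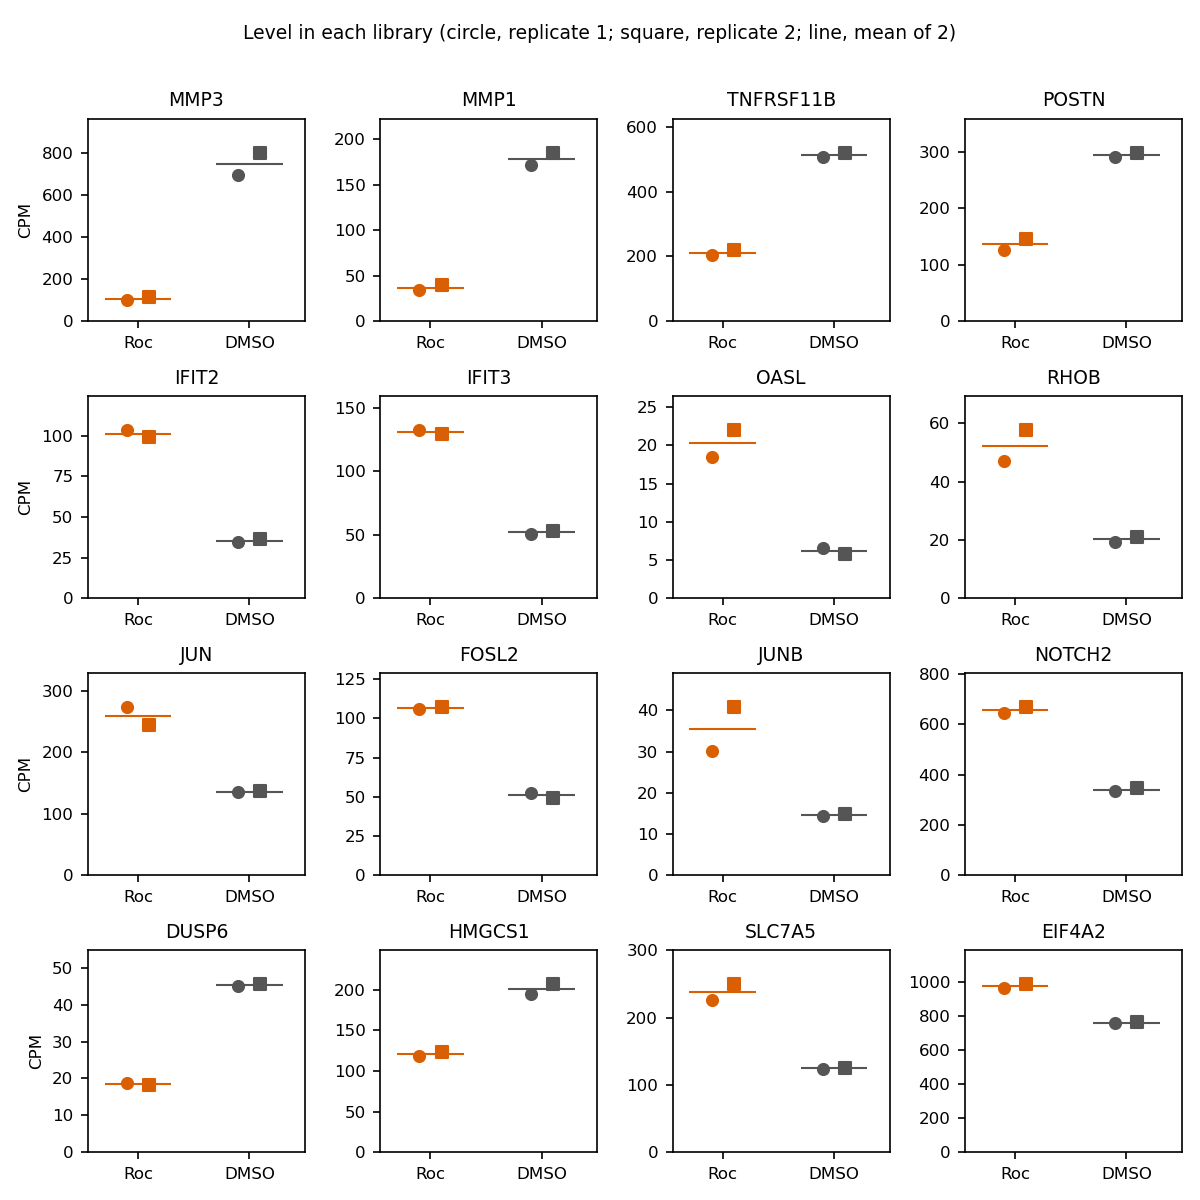
Level in CPM (vertical axis from 0) of 16 genes in each Roc library (orange, left) and each DMSO library (grey, right), with circles for replicate 1, squares for replicate 2 and lines for the mean of 2. In each of these genes both Roc libraries lie on the same side of both DMSO libraries, including EIF4A2, which did not reach the fold minimum. The same holds for 57.4% of all genes tested.

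Genes induced by interferon formed the largest group of rises among the lists examined. Type I interferons act through the receptor-bound kinases JAK1 and TYK2, which phosphorylate STAT factors. These enter the nucleus with IRF9 and bind the interferon-stimulated response element (ISRE), and the induced genes encode sensors and effectors against viral RNA. Some of these genes can also be switched on directly by IRF3 or IRF1.

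Of 47 tested interferon-stimulated genes 24 rose and none fell in the edgeR fit (51.1% called, against 7.1% of all genes), with a median of 0.665. DESeq2 called 22 and limma-voom 23 of them higher and none lower. At an unadjusted p under 0.05 the edgeR fit had 34 higher and 1 lower, against 4728 of all 15303 genes in either direction. In 39 of the 47 both Roc libraries lay above both DMSO libraries, which held for 30.1% of all genes tested. IFIT proteins assemble into complexes that bind RNA lacking the host's cap methylation. IFIT2 had 104 and 99.0 CPM with Roc against 34.7 and 36.1 CPM with DMSO (1.52 ± 0.08, adjusted p = 3.06e-12). IFIT3 had 133 and 129 CPM with Roc against 50.5 and 53.2 CPM with DMSO (1.33 ± 0.07, adjusted p = 1.92e-11). IFIT1 had 102 and 110.1 CPM with Roc against 48.4 and 51.5 CPM with DMSO (1.09 ± 0.08, adjusted p = 1.54e-09). The neighbouring IFIT5 had 77.3 and 73.4 CPM with Roc against 69.1 and 73.4 CPM with DMSO and was not called (0.08 ± 0.08). Exons of the long LIPA annotation run opposite to IFIT2 and IFIT3, and LIPA itself had 68.1 and 82.2 CPM with Roc against 88.9 and 102 CPM with DMSO, a difference of the opposite sign.

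Other antiviral effector genes that rose were at lower levels. OASL, a relative of the oligoadenylate synthetases that enhances RIG-I sensing, had 18.5 and 22.0 CPM with Roc against 6.53 and 5.75 CPM with DMSO (1.73 ± 0.13, adjusted p = 2e-09). RSAD2, which encodes viperin, had 4.33 and 5.72 CPM with Roc against 1.51 and 1.31 CPM with DMSO (1.84 ± 0.23). TRIM22, an antiviral ubiquitin ligase, changed by 1.57 ± 0.23. Groups that do not overlap were a condition of the rule for the largest rises, by which these 3 were named. The ubiquitin-like modifier ISG15 (1.36 ± 0.23) and the RNA sensor genes IFIH1 (0.84 ± 0.11) and DDX58 (0.80 ± 0.12), the symbol used in the table for RIG-I, were called as well.

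The list was not uniform. The signal transducer STAT2 rose by 0.76 ± 0.12 and the transcription factor IRF1 by 0.82 ± 0.13. OAS3 had 43 and 44.2 CPM with Roc against 45.2 and 43 CPM with DMSO, with no difference beyond the spread (-0.02 ± 0.08). IFI6 overlapped between the groups (0.10 ± 0.14). BST2, the tetherin gene, was slightly lower with Roc (-0.36 ± 0.11, adjusted p = 0.0283), under the fold minimum.

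The interferon genes themselves gave almost no reads. Of the 21 interferon genes listed, 16 had 0 counts in all 4 libraries. IFNB1 had 0 and 1 counts with Roc against 0 and 0 with DMSO, and IFNA5 had 1 and 5 counts with Roc against 0 and 0 with DMSO, too few to be tested. IFNE was the exception, with 450 and 587 counts with Roc against 569 and 759 with DMSO. A gene with 0 counts in a library may still hold up to 3 counts' worth of transcript at this depth, from counting error alone.

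The ISRE was sought as the letters GAAA, any 2 bases and GAAA again, on both strands of the 250 bases before each RefSeq gene start (GRCh38.p14). Among the 24 called interferon-stimulated genes 17 had a sequence in the RefSeq promoter table, and 9 of these (52.9%) held a match, against 839 of all 27305 promoters (3.07%). Of the 23 that were not called 19 had a sequence and 11 (57.9%) held a match, so the letters did not separate the called members from the others. The windows of 30 bases below are printed on the gene's strand, to show what the matched element looks like in genes that rose and, last, in one that did not. Capitals mark the match, or its reverse complement with TTTC at each end. They come from chr10:89392497-89392526 (IFIT1, plus strand), chr10:89327865-89327894 (IFIT3, plus strand), chr1:1013380-1013409 (ISG15, plus strand), chr2:162318686-162318715 (IFIH1, minus strand) and chr10:89414513-89414542 (IFIT5, plus strand).
IFIT1: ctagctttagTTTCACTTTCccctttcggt
IFIT3: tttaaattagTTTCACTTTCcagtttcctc
ISG15: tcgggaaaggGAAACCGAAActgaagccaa
IFIH1: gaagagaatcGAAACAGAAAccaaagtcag
IFIT5: ttctattaagTTTCGGTTTCtgaagcttac
The match begins 116 bases before the start in IFIT1, 122 in IFIT3, 107 in ISG15, 21 in IFIH1 and 45 in IFIT5. IFIT1 and IFIT3 share the same 10 letters, TTTCACTTTC. A match is a description of these letters and was not measured as binding. The sterol element, sought as TCACNCCAC in the same windows, was in none of the 5 called cholesterol genes that had a sequence and in 0.875% of all promoters.

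**Figure D3:**
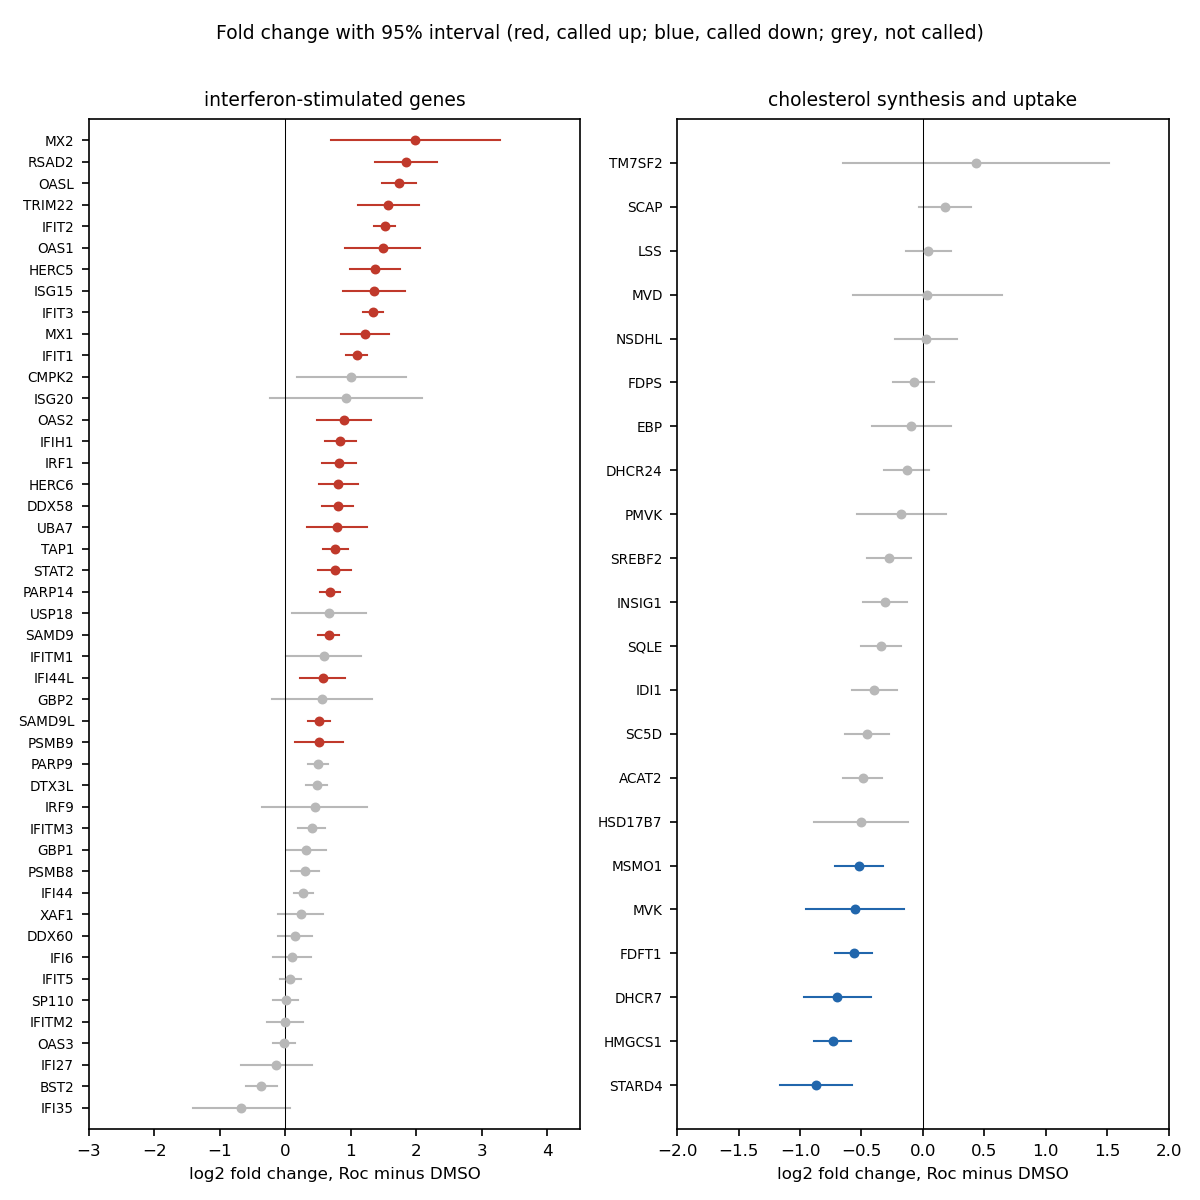
Log2 fold change, Roc minus DMSO, with its 95% interval for 46 of the 47 tested interferon-stimulated genes (left panel) and 22 of the 24 tested genes of cholesterol synthesis and uptake (right panel, narrower axis), each sorted by fold change. Red marks the 24 members called higher, blue the 6 drawn that were called lower and grey those not called, and the vertical line is 0.

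Some genes of cholesterol synthesis and uptake fell. Cells make cholesterol from acetyl-CoA through the mevalonate pathway and take it up from lipoproteins, and the transcription factor SREBP-2 drives most genes of both routes. Of 24 tested members 7 fell and none rose (29.2% called, where 2.53% of all genes were called lower). At an unadjusted p under 0.05 edgeR had 15 lower and none higher, against 4728 of all 15303 genes in either direction. DESeq2 and limma-voom each called 6 lower and none higher. A negative fold change was found in 19, and the median was -0.368. HMGCS1, which makes HMG-CoA at the head of the pathway, had 119 and 123 CPM with Roc against 195 and 207 CPM with DMSO (-0.73 ± 0.07, adjusted p = 2.24e-07). FDFT1, the squalene synthase, had 75.9 and 78.6 CPM with Roc against 115 and 113 CPM with DMSO (-0.56 ± 0.07). STARD4, a sterol carrier, had 7.6 and 7.5 CPM with Roc against 13.5 and 14.2 CPM with DMSO (-0.87 ± 0.14). No library of one group reached the other in these 3 genes, which held for 384 of the 387 called falls.

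SREBF2, which encodes SREBP-2, was at -0.28 ± 0.09. Of the 22 fatty acid synthesis genes only the desaturases FADS1 (-0.73 ± 0.09) and FADS2 (-0.55 ± 0.13) were called (9.09%, near the 7.1% of all genes). FADS2 was not called without Roc replicate 1. These 2 genes overlap on opposite strands, and the strand option of HTSeq is not known.

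Some genes of the AP-1 transcription factor rose. AP-1 is a dimer of JUN and FOS family proteins, induced within minutes by growth factors and stress. Of 10 tested AP-1 genes 4 rose, none fell and 6 were not called (40% called, against 7.1% of all genes), with a median of 0.422. FOSL2, which encodes Fra-2, had 106 and 107 CPM with Roc against 52.4 and 49.4 CPM with DMSO (1.07 ± 0.08, adjusted p = 1.54e-09). JUN had 274 and 245 CPM with Roc against 136 and 137 CPM with DMSO (0.93 ± 0.08, adjusted p = 1.09e-08). JUNB had 30.2 and 40.8 CPM with Roc against 14.4 and 14.9 CPM with DMSO (1.28 ± 0.11, adjusted p = 4.29e-08). JUND had 32.1 and 32.7 CPM with Roc against 22.5 and 23.4 CPM with DMSO and was just under the fold minimum (adjusted p = 0.000458), and FOS was near the detection limit at 0.302 CPM or less. FOSL1, the gene of Fra-1, was lower with Roc at 109 and 84.6 CPM against 122 and 117 CPM (-0.30 ± 0.09, adjusted p = 0.0244), under the fold minimum.

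Of 25 other immediate early genes tested 6 rose, none fell and 19 were not called. The share called was 24%, against 7.1% of all genes, and the median was 0.197. RHOB, a stress-inducible small GTPase, had 47.0 and 57.8 CPM with Roc against 19.3 and 21.1 CPM with DMSO (1.38 ± 0.10, adjusted p = 1.54e-09). The lowest Roc value was more than 2 times the highest DMSO value. ZFP36L1, which promotes the decay of AU-rich mRNAs, rose by 0.61 ± 0.07, and IER5L by 1.61 ± 0.23 from a low level. EGR1 was not called (-0.88 ± 0.38, adjusted p = 0.117).

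Among genes that report ERK signalling, more fell than rose. DUSP6 encodes the phosphatase that inactivates ERK, and its transcription depends on ERK activity. It had 18.7 and 18.3 CPM with Roc against 45 and 45.5 CPM with DMSO (-1.29 ± 0.10, adjusted p = 3.09e-09), with the 2 libraries of each group almost equal. The ERK-responsive factor genes ETV1 (-0.66 ± 0.08) and ETV4 (-1.05 ± 0.29) and the feedback inhibitor SPRY2 (-0.59 ± 0.12) fell as well, SPRY2 not without DMSO replicate 2. DUSP16, a phosphatase that prefers JNK and p38, went the other way with 14.5 and 13.6 CPM with Roc against 8.04 and 6.71 CPM with DMSO (0.93 ± 0.13, adjusted p = 2.76e-05). In all, 4 of the 20 tested members fell and 1 rose (25% called, against 7.1% of all genes), with a median of -0.183. MAPK3, which encodes ERK1, was not called (-0.27 ± 0.12).

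Receptor and signal transducer genes of developmental pathways were among the rises. NOTCH receptors are cleaved on contact with ligands of neighbouring cells and release a domain that activates HES and HEY genes. Of 22 tested NOTCH pathway genes 5 rose and none fell (22.73% called, against 7.1% of all genes), with a median of 0.438. NOTCH2 had 646 and 669.6 CPM with Roc against 333 and 346 CPM with DMSO (0.95 ± 0.07, adjusted p = 4.34e-09). NOTCH1 (0.65 ± 0.09) and the ligand genes JAG1 (0.52 ± 0.08) and DLL1 (0.75 ± 0.17) rose less. The target HEY1 had 6.01 and 5.49 CPM with Roc against 2.66 and 3.14 CPM with DMSO (0.98 ± 0.19), while HES1 overlapped between the groups at 3.23 and 4.67 CPM with Roc against 3.32 and 4.88 CPM with DMSO.

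The TGF-beta and BMP pathway signals through paired serine kinase receptors to SMAD proteins, and in bone cells BMP signals favour differentiation. Of 44 tested members 7 rose and none fell (15.91% called, against 7.1% of all genes), with a median of 0.337. A further 15 passed the adjusted p without the fold minimum. ACVR2A, a type II activin receptor gene, had 65.8 and 75.2 CPM with Roc against 28.4 and 36.7 CPM with DMSO (1.11 ± 0.10, adjusted p = 4.54e-08). SMAD3 had 274 and 285 CPM with Roc against 162 and 164 CPM with DMSO (0.78 ± 0.07, adjusted p = 5.69e-08). SMAD1, a BMP-side transducer (0.79 ± 0.11), and SMAD6, the inhibitor of that side (0.64 ± 0.08), rose together. BMPR2, the BMP type II receptor gene, was higher in both Roc libraries at 251 and 245 CPM against 191 and 192 CPM, under the fold minimum (0.37 ± 0.07, adjusted p = 0.000592).

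In the WNT pathway 7 of 44 tested genes rose and 2 fell (20.45% called, against 7.1% of all genes), with a median of 0.16. BCL9L, a beta-catenin coactivator, rose by 0.87 ± 0.10 and the receptor FZD7 by 0.71 ± 0.09. The secreted antagonist SFRP1 had 252 and 264 CPM with Roc against 398 and 429.5 CPM with DMSO (-0.68 ± 0.08, adjusted p = 2e-06). SOX9, the chondrogenic factor, had 6.91 and 5.95 CPM with Roc against 15.8 and 16.3 CPM with DMSO (-1.33 ± 0.17, adjusted p = 7.55e-06).

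Of 32 tested receptor tyrosine kinase genes 6 rose, none fell and 26 were not called. The share called was 18.75%, against 7.1% of all genes, and the median was 0.254. ERBB2 had 34.1 and 35.1 CPM with Roc against 23.4 and 21.8 CPM with DMSO (0.62 ± 0.09), EPHB3 changed by 0.95 ± 0.15, and the GDNF co-receptor gene GFRA1, carried in this list although it is no kinase, by 1.21 ± 0.19. PDGFRB had 26.4 and 40.9 CPM with Roc against 19.1 and 20.6 CPM with DMSO (0.77 ± 0.13), and was not called without Roc replicate 2 (0.42). EGFR had 501 and 528 CPM with Roc against 371 and 370.3 CPM with DMSO and stayed just under the fold minimum (0.47 ± 0.07, adjusted p = 6.76e-05). Of 33 tested genes of the PI3K, AKT, mTOR and FOXO list 2 rose and 1 fell (9.09% called, against 7.1% of all genes), with a median of 0.15. The insulin receptor adaptor gene IRS1 had 107 and 106 CPM with Roc against 55.4 and 53.9 CPM with DMSO (0.96 ± 0.07, adjusted p = 4.34e-09), and PIK3R3, a regulatory subunit gene of PI3-kinase, rose by 1.03 ± 0.12. The phosphoinositide phosphatase gene INPP4B fell (-0.54 ± 0.16, adjusted p = 0.0156) and lost the call when any of 3 libraries was left out. AKT1 (0.07 ± 0.08) and AKT2 (0.10 ± 0.08) were not called.

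**Figure D4:**
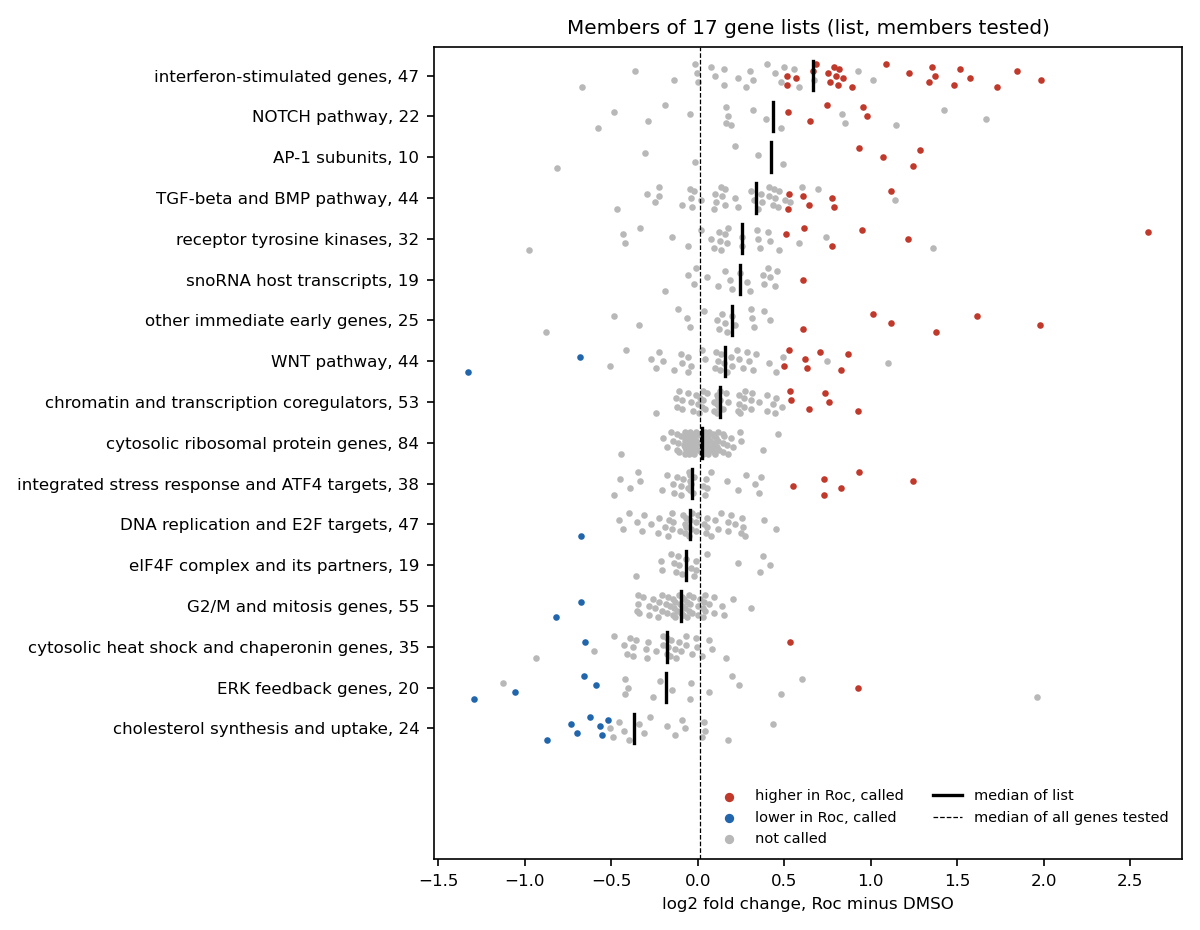
Log2 fold change, Roc minus DMSO, of the tested members of 17 gene lists, one row a list with the number of members tested, sorted by the list's median (black bar). The dashed line is the median of all genes tested (0.013). The interferon-stimulated genes have the highest median (0.665), the cholesterol genes the lowest (-0.368), and the 84 ribosomal protein genes lie around 0.

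Several transporter genes of large neutral amino acids rose, named here from the stress response list below and from the largest rises, with no list of transporters counted. SLC7A5 and SLC3A2 encode the 2 chains of the large neutral amino acid exchanger. SLC7A5 had 227 and 250.1 CPM with Roc against 124 and 125 CPM with DMSO (0.93 ± 0.08, adjusted p = 3.6e-08). SLC3A2 had 109 and 125 CPM with Roc against 65.6 and 66.5 CPM with DMSO (0.83 ± 0.08, adjusted p = 1.67e-07). SLC43A2, another transporter of large neutral amino acids, had 8.14 and 8.32 CPM with Roc against 2.03 and 1.59 CPM with DMSO, the largest rise among the protein-coding genes eligible to be named (2.19 ± 0.18, adjusted p = 1.15e-08). The glutamine carrier SLC38A2 changed by 0.55 ± 0.07.

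The integrated stress response raises ATF4, which induces amino acid synthesis and transport genes. Of 38 tested genes of this response 6 rose and none fell (15.79% called, against 7.1% of all genes), with a median of -0.034. The 6 were SLC7A5, SLC3A2, SLC38A2, CEBPB (0.73 ± 0.09), ATF3 (1.24 ± 0.27) and SESN2 (0.73 ± 0.17). ATF3 was not called without Roc replicate 2, nor SESN2 without DMSO replicate 1. ASNS, the asparagine synthetase gene, had 90.2 and 82.3 CPM with Roc against 94.4 and 100.2 CPM with DMSO (-0.18 ± 0.08, adjusted p = 0.115). ATF4 (-0.04 ± 0.08) and DDIT3, which encodes CHOP (-0.14 ± 0.14), were not called.

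Chaperone genes were called at a share near the 7.1% of all genes. Of 35 cytosolic heat shock and chaperonin genes 1 fell and 1 rose (5.71% called), 30 had a negative fold change and the median was -0.176. HSP90AA1 had 2506 and 2411 CPM with Roc against 3308 and 3574 CPM with DMSO, at -0.49 ± 0.08 (adjusted p = 7.63e-05) under the fold minimum, and HSPA8 was at -0.41 ± 0.08. HSPA1B, one of a pair of near-identical stress-inducible HSP70 genes whose reads cannot be split with certainty, was called lower (-0.65 ± 0.14). Of 25 endoplasmic reticulum chaperone and unfolded protein response genes 2 fell and none rose (8% called), with a median of -0.1. HSP90B1 had 1323 and 1491 CPM with Roc against 1929 and 2174 CPM with DMSO (-0.54 ± 0.08, adjusted p = 4.61e-05), and MANF fell by 0.56 on the log2 scale. Neither was called without Roc replicate 1 or without DMSO replicate 2.

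Few replication and mitosis genes were called. Of 47 DNA replication and E2F target genes 1 fell and none rose (2.13% called, median -0.044). Of 55 G2/M and mitosis genes 2 fell and none rose (3.64% called, median -0.097, with 40 negative). Of all genes 7.1% were called, and 2.53% were called lower. HMMR, which encodes a spindle-associated hyaluronan receptor, had 230.2 and 227 CPM with Roc against 382 and 424 CPM with DMSO (-0.82 ± 0.07, adjusted p = 4.54e-08). KIF14, a mitotic kinesin, had 108 and 107 CPM with Roc against 175 and 167 CPM with DMSO (-0.67 ± 0.08). TOP2A had 1635 and 1637 CPM with Roc against 1637 and 1711 CPM with DMSO (-0.03 ± 0.07), and MKI67 overlapped between the groups. Of 16 tested G1 cyclins, CDKs and CDK inhibitors 1 rose and 2 fell (18.75% called, against 7.1% of all genes, median -0.112). CDK6 rose (0.58 ± 0.08), though not without Roc replicate 1. CCNE1, the gene of cyclin E1 and also the 1 called in the replication list (-0.67 ± 0.19, adjusted p = 0.0163), and E2F5 (-0.87 ± 0.30, adjusted p = 0.0441) fell. CCNE1 was not called without Roc replicate 2 or without DMSO replicate 2, and E2F5 lost the call when any one of the 4 libraries was left out. In bulk RNA, fewer cells of a kind and less RNA in each cannot be told apart.

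Histone gene values came from poly(A)-selected RNA, which holds few of the non-polyadenylated replication-dependent transcripts. Of 16 tested in the list, which also holds replication-independent members, 5 rose and none fell (31.25% called, against 7.1% of all genes). HIST1H2AC had 7.64 and 5.81 CPM with Roc against 2.25 and 1.88 CPM with DMSO (1.70 ± 0.20, adjusted p = 2.37e-06) and HIST1H2BK changed by 0.98 ± 0.13. HIST1H1C was not called without DMSO replicate 2, and H1F0 lost the call when any of 3 libraries was left out.

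Apoptosis and p53 target genes showed isolated rises. Of 29 tested p53 target genes 4 rose and none fell (13.79% called, against 7.1% of all genes, median 0.057). They were CCNG2, PHLDA3 (1.37 ± 0.29), SESN2 (0.73 ± 0.17) and SERTAD1 (0.83 ± 0.25). SERTAD1 lost the call when any one library was left out, and SESN2 without DMSO replicate 1. The activity of p53 itself was not measured. CCNG2, an atypical cyclin linked to growth arrest, had 8.09 and 10.6 CPM with Roc against 3.48 and 3.49 CPM with DMSO (1.43 ± 0.17, adjusted p = 2.4e-06). CDKN1A, the p21 gene, overlapped between the groups at 3.43 and 6.21 CPM with Roc against 4.42 and 5.07 CPM with DMSO, and MDM2 did too (0.06 ± 0.08). In the BCL2 family, which sets the mitochondrial threshold of apoptosis, 3 of 12 rose and none fell (25% called, against 7.1% of all genes). They were the protective BCL2 (0.61 ± 0.13) and the death-promoting BCL2L11 (0.67 ± 0.16) and BAK1 (0.79 ± 0.22). BCL2 was not called without Roc replicate 1, and BAK1 lost the call when any of 3 libraries was left out. MCL1, a short-lived survival factor, was not called (0.17 ± 0.08). Of 26 tested genes of caspases, death receptors and their inhibitors 1 rose and 1 fell (7.69% called, near the 7.1% of all genes, median -0.01). The inflammatory caspase gene CASP4 had 24.2 and 22.7 CPM with Roc against 41.9 and 39.6 CPM with DMSO (-0.80 ± 0.10, adjusted p = 4.49e-06), and the TNF receptor gene TNFRSF1A rose by 0.64 ± 0.08.

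Of 53 tested coregulators of transcription 6 were called higher, none lower and 47 not (11.32% called, against 7.1% of all genes), and the median was 0.128. HEXIM1, the inhibitor of the elongation kinase P-TEFb, had 119.6 and 118 CPM with Roc against 62.1 and 63.1 CPM with DMSO (0.93 ± 0.07, adjusted p = 6.1e-09). The acetyltransferase gene EP300 (0.76 ± 0.07), the nuclear receptor corepressor NRIP1 (0.74 ± 0.07) and the BCL6 corepressor BCOR (0.64 ± 0.08) followed. No library of one group overlapped the other in these 4 genes, which held for all 700 called rises.

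Of 34 tested genes of NRF2 and its targets 2 rose and 1 fell (8.82% called, near the 7.1% of all genes), with a median of -0.05. NFE2L2, the gene of NRF2, had 464 and 451 CPM with Roc against 327 and 338 CPM with DMSO, under the fold minimum (0.46 ± 0.07, adjusted p = 6.93e-05). PIR, an iron-binding nuclear protein gene, had 3.07 and 2.31 CPM with Roc against 9.05 and 11 CPM with DMSO (-1.92 ± 0.20, adjusted p = 4.19e-07). HMOX1, the inducible heme oxygenase, had 6.66 and 5.72 CPM with Roc against 3.13 and 2.96 CPM with DMSO (1.02 ± 0.18). AKR1C1, a member of a family of near-identical reductases, was high in Roc replicate 2 alone, at 2.21 and 5.98 CPM with Roc against 1.56 and 2.20 CPM with DMSO, and its change of 1.14 ± 0.33 was 0.22 without that library.

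No gene of the drug's target complex or of the ribosome was called. Of the 19 tested genes of the eIF4F complex and its partners edgeR, DESeq2 and limma-voom called none. In the edgeR fit 5 had an unadjusted p under 0.05 (3 higher and 2 lower), and 3 passed the adjusted p without the fold minimum. Of all 15303 genes tested 4728 had an unadjusted p under 0.05, the count beside which these and the ribosomal values are read. Of the 19, 14 had a negative fold change, and the median was -0.069. EIF4A2 had 965 and 986 CPM with Roc against 756 and 763 CPM with DMSO (0.36 ± 0.07, adjusted p = 0.00109). EIF4A1 was counted at 6.05 and 4.64 CPM with Roc and 3.98 and 4.20 CPM with DMSO and was not called (0.38 ± 0.19, adjusted p = 0.189). Its exons are shared with the read-through gene SENP3-EIF4A1 in the annotation used here, and whether reads were lost to such sharing was not tested. EIF4G2, a scaffold for cap-independent initiation, was at 0.42 ± 0.08, and EIF4E overlapped between the groups (-0.02 ± 0.08). DHX29 was lower, at 116 and 116 CPM with Roc against 151 and 146 CPM with DMSO (-0.36 ± 0.07, adjusted p = 0.00106). Of 84 ribosomal protein genes the 3 tools called none, 10 had an unadjusted p under 0.05 with edgeR, 1 passed the adjusted p alone, and the median was 0.022.

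A list of 25 genes held those whose proteins the study blotted or cited from its authors' earlier work. PDGFRB was the 1 called (4%, below the 7.1% of all genes), and 7 others passed the adjusted p under the fold minimum. EGFR, STAT3 (0.40 ± 0.07), EIF4A2, IGF1R (0.36 ± 0.08) and MAPK14, the p38 gene (0.23 ± 0.08), were the higher ones. BIRC5, which encodes survivin (-0.28 ± 0.07), and PTK2, which encodes focal adhesion kinase (-0.22 ± 0.07), were lower. MET (0.17 ± 0.07) did not pass. PARP1 and PCNA differed by 0.15 or less in size and did not pass.

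The remaining large changes among protein-coding genes were mostly in genes of low level, with SERPINI1 the exception below. Among the falls, IL7R, the interleukin-7 receptor gene, had 0.409 and 1.34 CPM with Roc against 4.66 and 3.42 CPM with DMSO (-2.13 ± 0.36), and the change ran from -3.29 to -1.60 with a library left out. C10orf90 had 1.02 and 1.25 CPM with Roc against 4.64 and 4.55 CPM with DMSO (-2.0 ± 0.33). PSG1, of a placental glycoprotein family with near-identical copies, had 2.62 and 2.71 CPM with Roc against 9.65 and 9.48 CPM with DMSO (-1.84 ± 0.19). SERPINI1, the neuroserpin gene, had 13.0 and 15.1 CPM with Roc against 35.8 and 38 CPM with DMSO (-1.38 ± 0.11, adjusted p = 6.1e-09). The decoy receptor gene IL13RA2 changed by -1.37 ± 0.19. Groups that do not overlap were a condition of the rule for the largest falls, by which these 5 were named. The chemokine gene IL8 rested on 2 and 1 counts with Roc against 35 and 23 with DMSO, a ratio of 0.0697 with a 95% exact counting interval from 0.014 to 0.214, DESeq2 gave it no adjusted p, and it was not called without Roc replicate 2 or DMSO replicate 1.

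Among the rises of this kind, SLC44A2, a choline transporter-like gene, had 12.3 and 11.7 CPM with Roc against 4.31 and 3.14 CPM with DMSO (1.69 ± 0.16, adjusted p = 6.49e-08). DMRT3 (1.55 ± 0.22), PRRT2 (1.53 ± 0.28) and PNMA2 (1.55 ± 0.30) were below 6 CPM in every library. The neurofilament light chain NEFL, which the table does not class as protein-coding, had 174 and 197 CPM with Roc against 93.5 and 95.7 CPM with DMSO (0.97 ± 0.08, adjusted p = 6.1e-09), while 8 of the 10 neuronal markers were under 1 CPM in all libraries.

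Non-coding transcripts were called in both directions. Of 723 antisense transcripts 11 rose and 27 fell (5.26% called). Of 750 lincRNAs 25 rose and 23 fell (6.4% called, against 7.1% of all genes). The median standard error of a log2 fold change was 0.519 for antisense transcripts and 0.49 for lincRNAs, against 0.106 for protein-coding genes. Host transcripts of small nucleolar RNAs are degraded through nonsense-mediated decay when translated. Of 19 tested 1 was called, SNHG18 (0.61 ± 0.09), a share of 5.26%, below the 7.1% of all genes. The median was 0.246, and 15 were positive. Both Roc libraries lay above both DMSO libraries in 73.7% of them, against 30.1% of all genes tested. The part of decay in these values was not tested. GAS5 had 332 and 326 CPM with Roc against 252 and 240.3 CPM with DMSO (0.42 ± 0.07, adjusted p = 0.000228), under the fold minimum. Of 21 nonsense-mediated decay factors tested 1 was called (4.76%, below the 7.1% of all genes), with a median of 0.032. That gene, UPF3B, a factor of that decay pathway whose own transcript is among its targets, had 39.4 and 41.7 CPM with Roc against 23.3 and 25.6 CPM with DMSO (0.73 ± 0.09, adjusted p = 4.45e-06).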

How the data were processed

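The deposited values used are raw gene counts. Per the labels and the study's methods, the authors made TruSeq stranded mRNA libraries, removed mitochondrial, ribosomal and transfer RNA reads with Bowtie2 2.5.1, aligned the rest with STAR 2.7.3a to GRCh37/hg19 and counted genes with HTSeq 0.11.2, with annotation release and strand option not given in the sources used here. 64 other per-sample columns were not used. Nor were the authors' own test columns (fold changes and p-values).

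Genes passing filterByExpr were scaled by TMM and tested in edgeR 4.0.16 (R 4.3.3, quasi-likelihood F test, Benjamini-Hochberg adjustment) with the 6 MG-63 libraries in 3 groups. The third group, 2 libraries of MG-63 cells given 5 nM didesmethylrocaglamide (DDR) for 24 h, served only to estimate spread. The spread behind each p-value and SE thus comes partly from cells given another drug of the same family. With the Roc and DMSO libraries alone 618 genes were called higher and 455 lower. The biological coefficient of variation was 7.36%. CPM use the TMM-scaled totals, and the SE divides each fold change by the root of its F statistic. Replicate numbers were not used to pair the samples in this fit.

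On simulated counts the fit called 85% of 100 changes of 0.75 and 99% of 100 changes of 1.5 in size, on the log2 scale, in the right direction. It also called 4 unchanged genes. The changes were put only in genes of at least 2 CPM on average. Spread followed the trend over level, with none particular to a gene. These shares therefore do not cover genes of lower level or genes that vary more than the trend.

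The gene lists were chosen with earlier results of these data known. Named genes are the 12 largest rises and falls among called protein-coding genes of at least 2 CPM on average whose groups do not overlap. Added to these were the 10 smallest p and the 4 largest of other biotypes each way. Up to 4 called members of each list were taken by p (the 2 smallest p where fewer than 2 were called). EIF4A1, EIF4A2, the genes of blotted or cited proteins and genes named in the study complete the set. Other list members were named after their values were seen. Some genes that the rule or the lists hold are not reported here by name. Gene positions are from GENCODE 44 lifted to GRCh37.

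The alternatives were other scalings, DESeq2 1.42.0, limma-voom (limma 3.58.1), other filters and fold minimums, the Roc and DMSO libraries alone, a replicate block, thinned counts and each library left out.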

Additional observations from a re-analysis of the deposited data

How the results depend on the processing

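Counts of genes called higher and lower, 700 and 387 as reported, stayed between 617 and 714 and between 313 and 455 with other scalings, tests, filters, thinned counts or the Roc and DMSO libraries alone. With each library left out they ran from 576 to 719 and from 221 to 386, with the lowest number of falls without DMSO replicate 2. In these fits 1 group has a single library, assumed to vary like the others. For protein-coding genes the same fits gave 541 to 661 higher and 193 to 342 lower. With no fold minimum 1688 genes were called higher and 1175 lower (protein-coding, 1607 and 1092), and with a minimum of 1 on the log2 scale 138 and 107 (protein-coding, 121 and 70). The replicate block gave 690 and 366. Over genes, the deviations of replicate 1 from its group mean correlated by 0.025 between Roc and DMSO. This single value cannot show whether libraries of the same number were handled together, and the sample titles do not say. Of 125 named genes called, 89 kept the call in every alternative other than the block and a minimum of 1, and 36 lost it in at least 1. The sign turned with a library left out, within the spread, for EIF4E (-0.14 to 0.081). At this depth, in 4 classes of equal size by level, lowest first, 2.82%, 13.77%, 7.4% and 4.42% of genes were called, with median SEs of 0.611, 0.192, 0.1 and 0.076.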
